A study of Mus musculus with 199 samples.

Results

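Chromosome 19 is the shortest mouse autosome. In the deposited 40 kb table it took up 1534 windows, all rows listed under its name, of 61816 autosomal windows (2.48%) and 68162 rows in all. The mm9 sequence of the chromosome is 61342430 bp long. It held 724 annotated protein-coding genes, or 12.5 per Mb of determined sequence, and only 2 of the other 18 autosomes were denser. Its GC content was 42.7%, and the other autosomes ranged from 40.5% on chromosome 3 to 43.8% on chromosome 11.

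The calls came from multiplex-GAM libraries of 46C mouse embryonic stem cells (strain 129/Ola, 1 line with a Sox1-GFP knock-in) that had not passed the authors' quality control, so every value here is conditional on that failure. In genome architecture mapping (GAM), thin cryosections are cut through fixed cells, the slices of nuclei in them (nuclear profiles) are isolated by laser, and the DNA of each cap is amplified and sequenced. The 186 libraries used here were each labelled as 4 profiles (4NP) from 220 nm sections. A further 11 libraries were water controls and 2 held 5 ng of human DNA.

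The 186 libraries fell into 28 groups in 11 experiments, named here as in the titles. The full collection was stained with cresyl violet at 1%. Other tests compared crystal violet at 1% with unstained sections (the crystal violet experiment, whose title names cresyl violet), eosin in ethanol (eosin-etoh) or in water (eosin-h2o), both at 0.5% in the labels although the paper's methods give another strength for water, propidium iodide at 10 µg/ml with and without freezing (pi_stained_frozen and pi_stained), and SYBR Gold with unstained sections. The rest varied the time of freezing, the titled proteinase K volume (1, 2, 3, 4 or 8 µl, with csc and mdc not spelled out in the labels), the reagent volumes of the amplification (protocol_a and protocol_c), the kit size and the number of PCR cycles (20, 23 or 25). For SYBR Gold the protocols contradict the titles as to staining, and the grouping is by title. Each library was 1 cap, and nothing in the labels ties caps to separate cultures, so p-values measure the spread between caps.

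Each chromosome fills its own territory in the nucleus. A thin slice through a territory therefore holds stretches of the chromosome rather than scattered loci, windows close together tend to be found in the same profiles, and a slice that misses the territory holds none of the chromosome. Mouse autosomes have the centromere near one end, and the repeats around it are not in the assembly. The measures below follow from this: how much of the chromosome was called, how often none of it was, how long the called stretches were, and how windows co-segregated with distance.

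The start of the sequence shows this limit. The first 75 windows, chr19:1-3000000, held only undetermined bases, and 5 more windows at chr19:6680001-6880000 were over 50% undetermined. The 80 undetermined windows were 5.22% of the chromosome. Of these, 79 were never called, and chr19:6680001-6720000 was called in 3 libraries. Among the determined windows, only chr19:3000001-3040000 and chr19:3040001-3080000, which lie directly after the undetermined start and hold no annotated gene, were called in none of the 186 libraries. The first 120 determined bases of the plus strand are shown because they open this never-called stretch, with the CG dinucleotide in capitals.

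First determined bases, chr19:3000001-3000120: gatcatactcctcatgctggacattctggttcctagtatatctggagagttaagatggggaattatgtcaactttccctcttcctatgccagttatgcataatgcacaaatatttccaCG

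The window called most often, chr19:45720001-45760000, was called in 32 libraries. It overlaps exons of Fbxw4, which encodes an F-box protein with WD40 repeats.

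The depth behind these calls was low and uneven. A 4NP library had from 1 to 17708 called windows in the whole table, with a median genome coverage of 2.47% and 73 libraries below 1%. On chromosome 19 the number of called windows ran from 0 to 563 per library, with a median of 25 and a mean of 67.6 ± 98.0 (SD, n = 186). The calls carry no read totals, so a library with little DNA and one with few reads cannot be told apart.

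Not all water controls were empty on chromosome 19. In water control replicate 4 of the full collection, 390 of its windows were called (25.4%), with a longest stretch of 680 kb. In the water control titled unstained in the SYBR Gold experiment, 335 were called (21.8%), with a longest stretch of 600 kb. Relative to the other autosomes their coverage of chromosome 19 was 1.13 and 1.07. The other 9 water controls had between 0 and 13 called windows, and both human DNA controls had 0. Of the 1534 windows, 666 had a call in 1 water control or more, but only 20 in any of the other 9, and none of the 20 in more than 1 of them.

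Chromosome 19 was covered slightly less than the other autosomes, by an amount within the error between libraries. Its mean coverage was 4.41% of its windows and that of the other 18 autosomes 4.78%, a ratio of 0.922 ± 0.0664 (jackknife SE over 186 libraries). The difference of -0.374 percentage points gave p = 0.243 in a two-sided paired sign-flip permutation test (adjusted p = 0.815 over the 19 autosomes). Coverage was lower than the mean of the others in 110 libraries and higher in 76. This split was typical of an autosome: the others were lower in 76 to 123 libraries, with a median of 110.5. The other ratios ran from 0.874 on chromosome 7 to 1.18 on chromosome 11, and only 2 of them were below that of chromosome 19. Of the 19 autosomes, 0 (0%) passed the test at an adjusted p below 0.05, and 2 of 19, chromosomes 7 and 11, had an unadjusted p below 0.05. Undetermined windows count as uncalled here, and they were 5.22% of chromosome 19 against a median of 2.9% on the other autosomes. With them left out the ratio was 0.943.

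**Figure D1:**
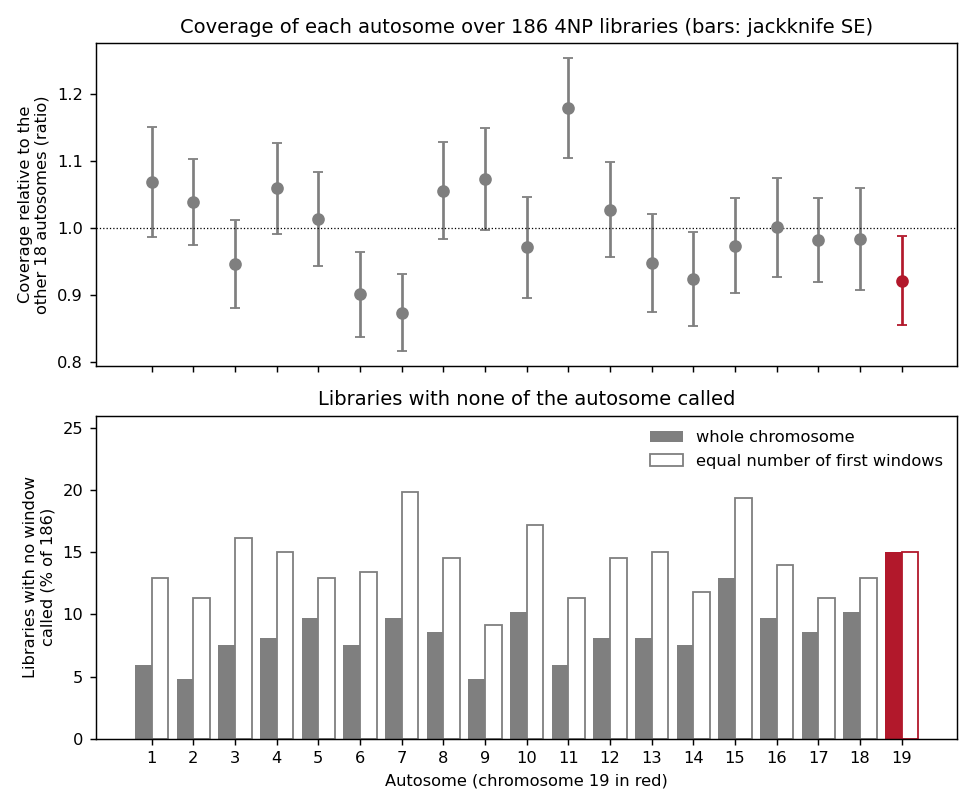
Upper panel: coverage of each autosome divided by that of the other 18, pooled over 186 4NP libraries, with jackknife SE; chromosome 19 (red) is at 0.922. Lower panel: percent of libraries with no window called on the whole autosome (filled) and on its first 1534 windows (open); chromosome 19 is highest at 15.1% for whole autosomes, while with equal numbers of windows the other autosomes range from 9.14% to 19.9%.

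Single libraries departed far more from 1 than the pooled ratio did. Among the 113 libraries with at least 1% genome coverage, the relative coverage of chromosome 19 had a median of 0.847, with a range from 0 to 3.37. It was below 0.5 in 32 libraries, between 0.5 and 2 in 71 and above 2 in 10. The other autosomes had 22 to 40 libraries below 0.5 and 6 to 17 above 2, so chromosome 19 lay inside their range at both ends. Its SD over libraries was 0.716, against 0.628 to 0.95 on the other autosomes.

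The libraries richest in chromosome 19 were not simply the deepest ones. Replicate 13 of pi_stained had 563 called windows (36.7%) and 2.17 times the coverage of its other autosomes. Replicate 3 of eosin-etoh had 554 windows (36.1%) and a ratio of 2.60. Replicate 7 of pi_stained, the library of highest genome coverage at 26.8%, had 369 windows and a ratio of 0.839. The largest ratios, both 3.37, were in replicate 6 of the 1 µl csc proteinase K libraries, with 323 windows at 6.2% genome coverage, and replicate 2 of protocol_c, with 222 windows at 4.61%.

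At the other extreme, chromosome 19 was nearly missing from some libraries with much of the genome called. Replicate 14 of the full collection had 2 called windows of chromosome 19 at 14% genome coverage. Replicate 16 of pi_stained had 1 window at 7.84%, and replicate 4 of eosin-etoh had 2 at 7.42%.

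**Figure D2:**
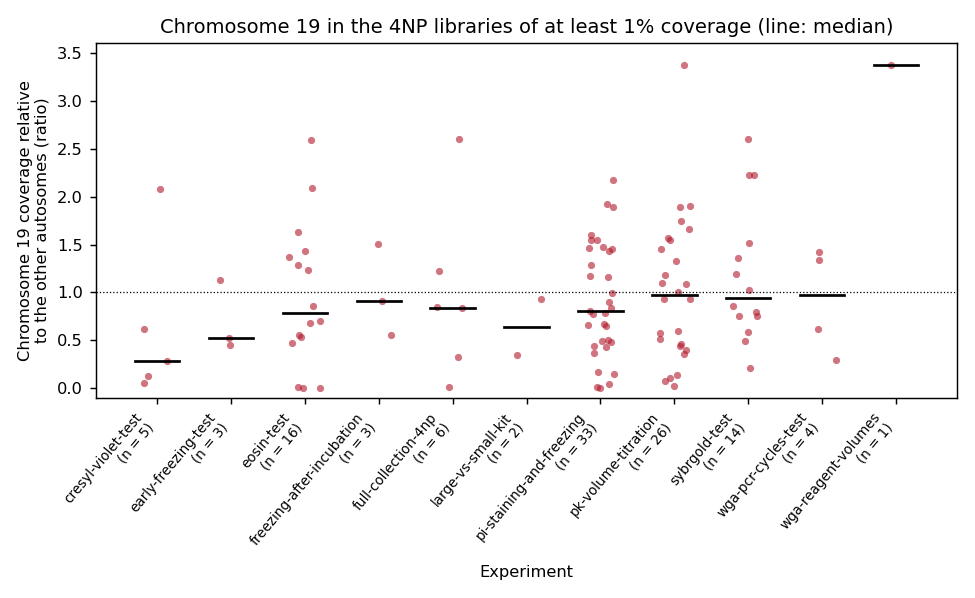
Coverage of chromosome 19 relative to the other autosomes (ratio, vertical axis) in each of the 113 4NP libraries with at least 1% genome coverage, by experiment; each point is 1 library, black lines are medians and the dotted line marks equal coverage. Ratios range from 0 to 3.37, with 65 of 113 libraries below 1 (50 to 75 on the other autosomes).

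By experiment, the pooled ratio was below 1 in 9 of 11. It ran from 0.450 ± 0.162 in the crystal violet experiment to 2.54 ± 1.62 among the 6 libraries of the reagent volume test, where it was 0.748 without replicate 2 of protocol_c. The low value came with the 5 unstained libraries, which pooled to 0.330 ± 0.132, while the 16 crystal violet libraries pooled to 1.01 ± 0.115. The crystal violet libraries had genome coverages of 0.242% to 0.978% and the unstained ones 1.63% to 13.7%. Stain and coverage therefore cannot be told apart here. The pooled ratio was 0.912 ± 0.115 in the 43 libraries of the propidium iodide test and 0.962 ± 0.112 in the 31 of the proteinase K titration. It was 1.14 ± 0.249 in the 17 of the eosin test (0.941 without replicate 3 of eosin-etoh). The full collection pooled to 0.722 ± 0.456, or to 1.13 if its replicate 14 is left out. Leaving out 1 library also turned the direction in the SYBR Gold, PCR cycle and freezing-after-incubation experiments, with ratios of 1.01 to 1.16. Of the 9 experiments with an SE, 1, the crystal violet experiment, lay more than 2 SE from 1.

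No window of chromosome 19 was called in 28 of the 186 libraries. This share, 15.1% (exact 95% interval 10.2% to 21%, counting error only), was the highest of the 19 autosomes. The others ran from 4.84% on chromosome 2 to 12.9% on chromosome 15, with a mean of 8.21%. The difference of 6.84 percentage points passed the paired permutation test (p = 0.00098, adjusted p = 0.00931). Of the 19 autosomes 3 passed (15.8%), the others being chromosomes 2 and 9.

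The call was lost without 1 experiment and with equal numbers of windows. In the full collection 13 of 34 libraries had none of chromosome 19 (38.2%, against 17.8% on the other autosomes), and without that experiment the share was 9.87% (adjusted p = 0.275). These 13 libraries had genome coverages of only 0.00152% to 0.0727%. When each autosome was reduced to its first 1534 windows, the share on the others ran from 17 to 37 libraries (9.14% to 19.9%, median 13.7%). Of these, 12 lay below chromosome 19 and 4 above, and the difference no longer passed (adjusted p = 0.783). Over the 19 autosomes the number of windows and the share of libraries with none had a Spearman rho of -0.54, and of -0.46 without chromosome 19. These points share all libraries and are given as a description.

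Within the other experiments the share on chromosome 19 was 11.8% against 1.63% in the eosin test, 11.6% against 4.13% in the propidium iodide test, 12.9% against 9.68% in the proteinase K titration, 16.7% against 12.3% in the SYBR Gold test and 16.7% against 18.5% in the reagent volume test. In the freezing-after-incubation experiment it was 0% against 16.7%. The remaining 4 experiments had no library with none of any autosome.

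Among the 113 libraries of at least 1% coverage only 3 had none of chromosome 19 (2.65%, exact 95% interval 0.551% to 7.56%; adjusted p = 0.525). They were replicates 8 and 5 of eosin-h2o, at 5.55% and 4.62% genome coverage, and replicate 17 of pi_stained, at 4.07%. Each of the other autosomes was wholly uncalled in 0 to 2 of these libraries. The remaining libraries with none of chromosome 19 were all below 1%.

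In 0 of 186 libraries was more than 50% of chromosome 19 called, which allows a share of up to 1.61%. A single library passed this mark on chromosome 13 and none did on any other autosome. With so few libraries past the mark, the paired permutation test could not pass on any autosome. Its result, 0% of the 19 autosomes (0 of 19 also at an unadjusted p below 0.05), therefore decides nothing about chromosome 19. More than 25% of chromosome 19 was called in 2 libraries, against 2 to 7 on the other autosomes.

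Called windows of chromosome 19 formed short stretches. The 186 libraries held 7339 runs of adjacent called windows, of which 66.5% were a single window. The longest run was 1080 kb, and the other autosomes' longest runs were 1240 to 3160 kb. Runs of 1 Mb or more held 0.215% of the called windows of chromosome 19, against 0.285% to 1.72% on the others, which have more windows.

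Run length was compared in the 61 libraries with at least 10 called windows on every autosome. The mean run on chromosome 19 was 64.2 kb ± 21.6 (SD, n = 61), with a range over libraries from 40 to 141 kb, and the mean over the other autosomes was 65.6 kb. The difference of -1.40 kb was smaller than the spread (paired permutation p = 0.396, adjusted p = 0.719), and runs were shorter on chromosome 19 in 30 of 61 libraries. It was -0.152 kb without the crystal violet experiment and -2.89 kb without the propidium iodide test. Taken as the run of an average called window, it was -8.59 kb (paired permutation test, adjusted p = 0.786). The mean run of the other autosomes went from 62.6 kb on chromosome 14 to 68.4 kb on chromosome 5. Of the 19 autosomes 0 (0%) passed, with 1 of 19, chromosome 14, at an unadjusted p below 0.05. Within the 6 experiments of at least 15 libraries the difference ran from -12.8 kb in the crystal violet experiment (6 libraries) to 3.91 kb in the full collection (3 libraries).

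The longest stretches, each from 1 library, are given with their genes as a description. The chromosome as a whole holds 12.5 coding genes per Mb. Replicate 17 of pi_stained_frozen had chr19:36800001-37880000 called without a break, with 12 coding genes. Among them are Kif11, the spindle motor kinesin, Hhex, a homeobox factor of early liver and blood development, Ide, the insulin-degrading enzyme, and Cyp26a1 and Cyp26c1, which break down retinoic acid. Replicate 1 of the unstained libraries in the crystal violet experiment had 920 kb called at chr19:53120001-54040000, with 10 coding genes including Smc3, a subunit of cohesin. Replicate 3 of eosin-etoh had 880 kb at chr19:40880001-41760000, with 12 coding genes including Blnk and Dntt, which act in B cell signalling and in antigen receptor diversity, and Slit1, an axon guidance ligand.

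Co-segregation of 2 windows over the 186 libraries was measured as D′, their normalized linkage disequilibrium, which is 1 when the rarer window is called only together with the other. At 40 kb the mean D′ on chromosome 19 was 0.417 ± 0.0348 (jackknife SE) and on the other autosomes 0.460. It was 0.265 ± 0.0480 at 200 kb, against 0.338. At 400 kb it was 0.213 ± 0.0596 (others 0.279), and at 4000 kb -0.114 ± 0.0951 (others -0.00119). Thus D′ fell steadily up to 10000 kb, where it was -0.177 ± 0.101.

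The zero of this scale was not the level of unlinked windows. Pairs of a chromosome 19 window and a window of another autosome had a mean D′ of -0.288 ± 0.0645. Above that level, the linkage of chromosome 19 was 0.705 ± 0.0446 at 40 kb, 0.501 ± 0.0380 at 400 kb, 0.174 ± 0.0484 at 4000 kb and 0.116 ± 0.0672 at 20000 kb. Up to 4000 kb it was thus more than 2 SE above that of different-chromosome pairs, and at 10000 and 20000 kb it was less than 2 SE above it.

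Chromosome 19 lay below the mean of the other autosomes at each of the 9 distances, mostly within the error. Chromosome 6 had a lower D′ at 40 kb (0.415) and at 400 kb (0.204), while at 4000 kb chromosome 19 was the lowest. The differences of chromosome 19 from the mean of the others were -0.0424 ± 0.0268 at 40 kb, -0.0659 ± 0.0495 at 400 kb and -0.113 ± 0.0765 at 4000 kb. The first was -0.0255 without the crystal violet experiment, -0.0641 without the proteinase K titration and -0.0178 ± 0.0228 above different-chromosome pairs, and the value at 400 kb was -0.101 ± 0.0531 without the eosin test. At each of these 3 distances 0 of the 19 autosomes (0%) were beyond 2 SE of the rest. At 200 kb, outside the distances chosen for the comparison, the difference was -0.0732 ± 0.0357, 2.05 SE, and chromosome 19 was the 1 autosome of 19 (5.26%) beyond 2 SE. Taken above different-chromosome pairs it was -0.0486 ± 0.0246 there, which is 1.98 SE. The 9 distances share windows and libraries and are not independent.

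**Figure D3:**
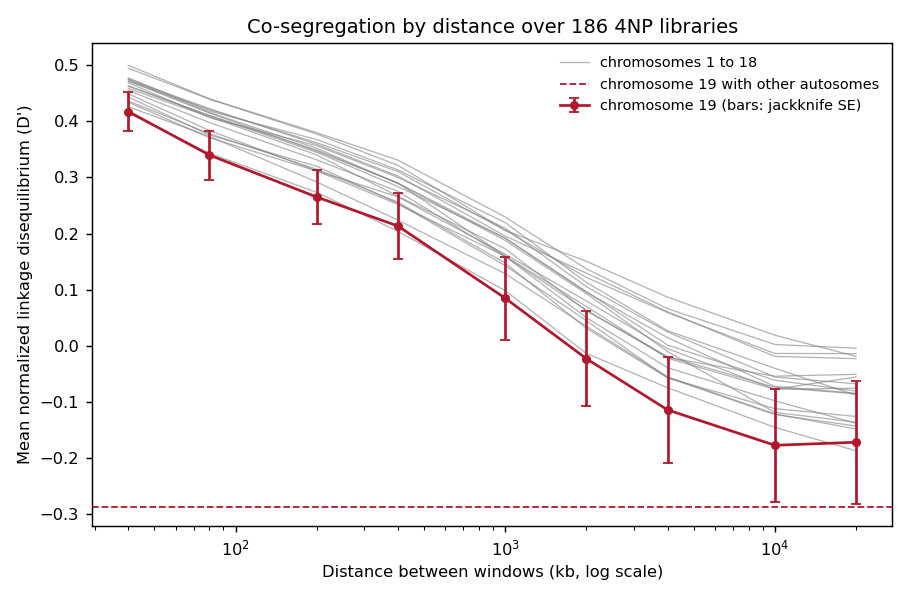
Mean normalized linkage disequilibrium (D′, vertical axis) of window pairs on the same autosome by distance (kb, log scale) over 186 4NP libraries: chromosome 19 in red with jackknife SE, chromosomes 1 to 18 in grey. Chromosome 19 falls from 0.417 at 40 kb to -0.114 at 4000 kb and lies along the lower edge of the grey lines; the dashed line, at -0.288, is the level of its pairs with other autosomes.

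The difference at 4000 kb did not have one sign in all experiments. It was -0.0737 ± 0.154 in the propidium iodide test, -0.207 ± 0.0903 in the proteinase K titration and 0.175 ± 0.243 in the eosin test. Without the eosin test it was -0.175 ± 0.0829, beyond 2 SE. Measured as the share of libraries with either window that held both, it was -0.0206 ± 0.00854, also beyond 2 SE. The other experiments had too few libraries or fewer than 20 pairs of windows at these distances.

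With the other autosomes, the linkage of chromosome 19 was highest for chromosome 11 (D′ -0.192 ± 0.0793) and lowest for chromosome 3 (-0.324). The difference of chromosome 11 from the other 17 was 0.102 ± 0.0475. It was the only 1 of 18 partners beyond 2 SE (5.56%). Over all its partners chromosome 11 also had the highest different-chromosome D′ of the 19 autosomes, at -0.213.

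Along the chromosome, detection was broad and shallow. The 1454 determined windows were called in a median of 8 of the 186 libraries, with the 5th and 95th percentiles at 4 and 14. Their mean was 8.65 ± 3.27 libraries (SD over windows), and that of the other autosomes' 58409 determined windows was 9.17 ± 3.66.

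The most called window, which overlaps Fbxw4, stood apart from its neighbours. It was called in 32 libraries (17.2%, Wilson 95% interval 12.5% to 23.3%), 30 of them of at least 1% coverage, from 8 experiments. The windows directly before and after it were called in 13 and 15. It was called in 7 of 21 pi_stained, 4 of 21 pi_stained_frozen, 3 of 8 eosin-etoh and 2 of 34 full collection libraries, and in 1 water control.

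The 10 most called windows came to 18 with ties. Of the 18, 12 held a coding gene, 5 held no annotated gene and 1, chr19:6640001-6680000 with 17 libraries, held noncoding genes only, while 477 of all 1454 determined windows had no coding gene. The window of the Kif11 start site was called in 20 libraries, and that of Ighmbp2, a helicase, in 18. A window at chr19:37080001-37120000 with Btaf1, which regulates TATA-binding protein, and Cpeb3, a translational regulator, had 18. It was also called in 1 of the 9 water controls with few calls. Mxi1, an antagonist of Myc, lay in a window with 18, and Lrp5, a Wnt co-receptor, in one with 17. The window chr19:8880001-8920000, with Bscl2, Gng3, Hnrnpul2 and Ttc9c, had 18, and the window before it, with 6 coding genes including the RNA polymerase II subunit gene Polr2g and the mRNA export gene Nxf1, had 17. Windows within Btaf1, Lcor, Dnmbp and Pax2, the last a developmental regulator of kidney and brain, also had 17 each. Of the gene-free windows, chr19:14400001-14440000 had 19 and chr19:38400001-38440000 had 18. Those starting at 9760001, 14040001 and 14720001 had 17 each.

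Detection rose and fell over 2 Mb bins. The bin chr19:6000001-8000000 was called most, at 6.25% ± 0.884 (jackknife SE) or a mean of 11.6 libraries per window, and it held 65 coding genes at a GC content of 48.0%. The bin before it had 11.5 libraries per window and 97 coding genes. The bin chr19:58000001-60000000 was called least, at 3.14% ± 0.581 or 5.84 libraries, with 17 coding genes. The bin chr19:50000001-52000000, with 2 coding genes and a GC content of 38.5%, had 6.42 libraries. A gene-poor bin could still be called often: chr19:14000001-16000000, with 2 coding genes, had 10.4. The highest and lowest bins were picked by these values, so their contrast was not tested.

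**Figure D4:**
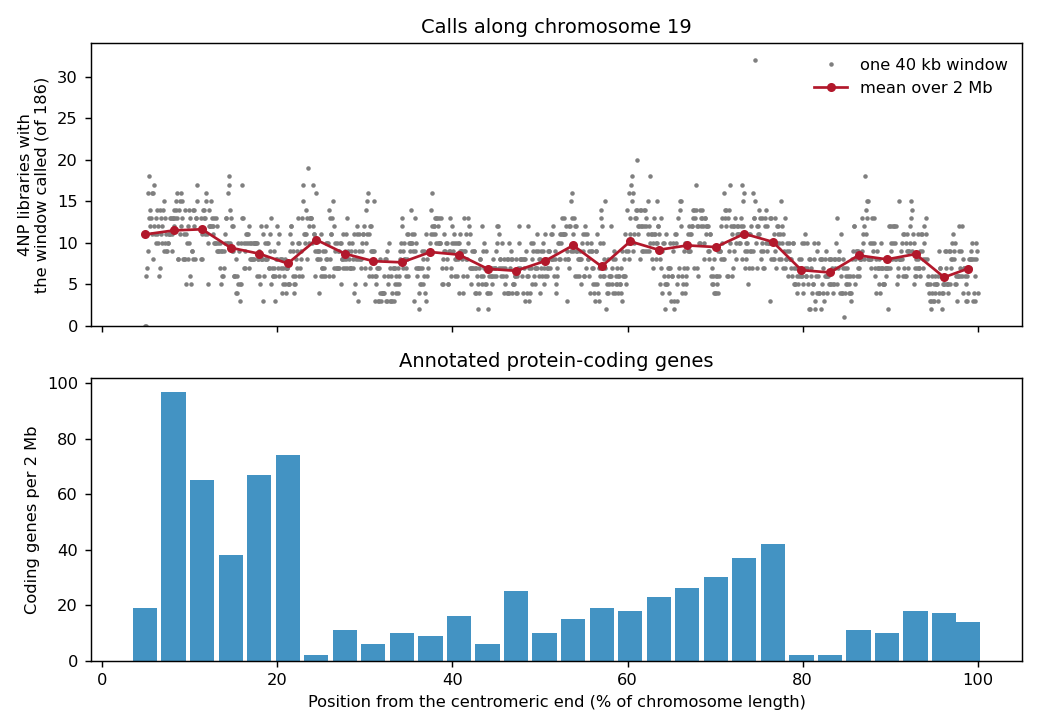
Upper panel: number of the 186 4NP libraries in which each determined 40 kb window of chromosome 19 was called (grey points) and the mean over 2 Mb bins (red), by position from the centromeric end in percent of chromosome length. The highest point, 32 libraries, is the window at Fbxw4, and bin means run from 5.84 to 11.6 libraries. Lower panel: annotated protein-coding genes in the same bins, the last of which is shorter.

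Over the 1454 windows, the number of libraries had a Spearman rho of 0.31 with GC content and of 0.22 with the number of coding genes, as a description. On the other autosomes the rho with GC content ran from 0.09 to 0.38, with 5 above chromosome 19. The rho with position from the centromeric end was -0.19, with 16 of the 18 other autosomes above it. Split at the middle of the determined windows, the proximal portion was called at 4.72% and the distal portion at 4.58%. The difference was 0.145 ± 0.314 percentage points, within the error (paired permutation p = 0.648, adjusted p = 0.734). It ran from 0.0638 without the PCR cycle test to 0.284 in libraries of at least 1% coverage, passing under none of the alternatives. Of the 19 autosomes 0 (0%) passed, and 2 of 19, chromosomes 8 and 11, had an unadjusted p below 0.05.

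Windows with a protein-coding gene were called more often than those without. Over the 186 libraries the 977 windows with a coding gene were called at 4.88% and the 477 without at 4.18%. The difference was 0.702 ± 0.179 percentage points, higher in 101 libraries and lower in 57, and it passed the paired permutation test (p = 6e-05, adjusted p = 9.5e-05). It was 1.1 in libraries of at least 1% coverage, 0.483 over windows called in no water control and 0.488 without the propidium iodide test, and passed in each. The same test passed on 18 of 19 autosomes (94.7%), so it was no mark of chromosome 19. The chromosome 19 difference was 0.0249 percentage points above that of the other autosomes (paired permutation p = 0.885, adjusted p = 0.934). Of the 19 autosomes 0 (0%) differed from the rest in this respect, with 3 of 19, chromosomes 11, 14 and 15, at an unadjusted p below 0.05.

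By experiment the difference was above 0 in 9 of 11. It was 1.42 percentage points in the propidium iodide test, 0.730 in the proteinase K titration and 0.259 in the full collection. It was -0.0448 in the SYBR Gold test and -0.657 in the reagent volume test. Windows with a coding gene had a mean GC content of 43.5% and those without 41.1%, and the part of GC content in the difference was not tested.

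The gene groups of the chromosome are described by the window of each start site against the median of 8 libraries. Of all 1454 determined windows 706 were above this median, 185 at it and 563 below. Windows with a coding gene were called more often than those without, so this median is a low mark for lists of coding genes. Genes of a list that lie close together, such as Fads1, Fads2 and Fads3, are not independent. No single window was tested.

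Lipid genes were mostly above the median, 4 of 5. Fads1, Fads2 and Fads3, the fatty acid desaturase cluster, had 12, 11 and 10 libraries, and the stearoyl-CoA desaturase gene Scd1 had 11 while Scd2 had 8. Among the 5 cytochrome P450 genes 3 were above. Cyp26a1 had 14 libraries and Cyp17a1, an enzyme of steroid synthesis, 10, while Cyp2c37, in the drug-metabolizing Cyp2c cluster, had 3.

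Of 9 developmental regulators 6 were above the median. Tcf7l2, a transcription factor of Wnt signalling, had 15 libraries, and Hhex and Nkx2-3 had 14 each. Fgf8, a growth factor gene near the Fbxw4 window, had 10, Pax2 8 and Lbx1 7. Tcf7l2 spans 6 windows with a mean of 9.67, so its start site window was above the rest of the gene, while Pax2 had a mean of 13.3 over 3 windows, above its start site window. Over all windows of each gene 8 of the 9 were above the median.

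Of 6 genes of chromatin and replication or cell division, 4 were above. Kif11 had 20 libraries, Smc3 15, Smc5, of a DNA repair complex related to cohesin, 13 and Kdm2a, a histone demethylase, 10. Uhrf2, which binds modified cytosine, had 5 and the chromatin remodeller Smarca2 6.

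Among growth and signalling genes, Sufu, a repressor of Hedgehog signalling, had 13 libraries and the kinase gene Map3k11 had 11. Jak2, the cytokine receptor kinase, had 8, and the death receptor gene Fas and Nfkb2, an NF-kappaB subunit gene, had 7 each.

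Of the 2 nuclear long noncoding RNA genes, Neat1 had 11 libraries and Malat1 had 8. Of 5 long neuronal genes 3 were above, from Nrxn2, a synaptic adhesion gene, at 14 to Gfra1, a co-receptor for a neuronal growth factor, at 3. Over all windows of each gene 2 of the 5 were above, and Sorcs1, at 9 in its start window, had a mean of 5.86 over 14 windows. Of the 3 interferon-induced Ifit genes, Ifit3 had 11, Ifit2 9 and Ifit1 5. Of the 3 Ms4a genes, which encode membrane-spanning proteins of immune cells, 0 were above, with 6 to 8 libraries. By the mean over all windows of each gene, the counts above the median became 2 of 5 for the cytochromes, 2 of 2 for the noncoding RNA genes and 1 of 3 for the Ms4a genes.

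Olfactory receptor genes, the largest family on the chromosome among these lists, lay below the median more often than above it. Of 65 genes 19 were above the median, 9 at it and 37 below. They share 38 windows between chr19:11902567 and 13994534, with a median of 7 libraries and a range of 3 to 13. Neighbouring genes share windows and are not independent. The bin chr19:12000001-14000000 had a GC content of 39.1%, and its part in the count was not tested.

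Staining, freezing and reagents were compared by the share of all autosomal calls that fell on chromosome 19, in libraries with at least 100 such calls. Over all 4NP libraries this share was 2.29% (12573 of 548558 calls), and the chromosome holds 2.48% of autosomal windows. Of 13 comparisons chosen, 10 could be run, and in two-sided permutation tests of the means none of these had a p below 0.05, unadjusted or adjusted. Other pairs of groups were not tested.

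Crystal violet libraries had a mean share of 2.51% ± 0.966 (SD, n = 16), with a range of 1.15% to 4.26%. The unstained libraries beside them had 1.56% ± 2.01 (n = 5), with a range of 0.148% to 5.02% that spans the stained ones (exact permutation p = 0.156, adjusted p = 0.676). All 16 stained libraries were below 1% genome coverage and all 5 unstained ones above it, so stain and coverage cannot be told apart. Replicate 4 of the unstained libraries was the highest of its group. The difference of 0.954 percentage points was 1.82 without it (exact permutation test, adjusted p = 0.0206), so 1 library decided this call, and 0.602 without unstained replicate 5.

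Eosin in ethanol gave 2.71% ± 1.90 (n = 8) and eosin in water 2.04% ± 1.77 (n = 8), with overlapping ranges (exact permutation p = 0.474). Propidium iodide gave 2.1% ± 1.46 (n = 19) unfrozen and 2.25% ± 1.61 (n = 20) frozen (permutation p = 0.752). Libraries titled stained with SYBR Gold had 2.91% ± 1.70 (n = 14) and those titled unstained 0.990% ± 1.40 (n = 2; exact permutation p = 0.142). The difference of 1.92 percentage points was 2.91 without unstained replicate 1 and 0.933 without unstained replicate 2.

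With 3, 4 and 8 µl of mdc proteinase K the share was 2.68% ± 1.23 (n = 7), 2.14% ± 1.47 (n = 7) and 1.88% ± 1.88 (n = 6). Replicate 4 of the 3 µl libraries was at 0.192%, and the next value of that group was 2.32%. The 3 pairs of volumes gave exact permutation p from 0.347 to 0.776, with ranges that overlapped. The full collection had 2.34% ± 1.78 (n = 10) and its water controls 3.53% ± 1.05 (n = 2; exact permutation p = 0.394). The difference of -1.20 percentage points was -1.94 without water control replicate 4 and -0.457 without replicate 6. The comparisons of freezing after incubation (n = 3 and 1) and of protocol_a with protocol_c (n = 1 and 3) cannot give an exact permutation p under 0.25.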

How the data were processed

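The deposited values were calls of 0 or 1 per 40 kb window and library, a unit with no scale of its own. To make them, the authors mapped the reads to mm9 with Bowtie2 (version 2.1 per the labels), dropped duplicates with Samtools and let GAMtools call each window holding enough reads, with 4 as the fixed threshold (paper's methods). A fixed threshold makes the number of calls depend on read depth, which calls do not show. Window ends were checked against the mm9 sequence, and genes were taken from GENCODE M1. All 199 columns matched a sample by well name.

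From the calls were computed coverage per autosome, libraries with none or over 50% called, runs of adjacent calls, and D′ for windows called in at least 2 libraries. Each autosome was compared with the mean of the other 18 by a paired sign-flip permutation test over libraries (100000 resamples, two-sided, smallest p 1e-05), adjusted by Benjamini-Hochberg over the 19 autosomes. Errors of pooled values were jackknife SE, and D′ differences beyond 2 SE were called. Groups were compared by permutation of the chromosome's share of calls in libraries with at least 100 autosomal calls, adjusted over the comparisons run. The gene groups were lists of known genes of the chromosome, and genes were assigned to the window of their start. The windows named are the 10 called most often, with ties, the genes those of the lists and the longest runs. The members, lists and tests were chosen with earlier results of these data known. Some items withheld from the text are not reported here. The coding-gene, proximal against distal and equal-window comparisons and the linkage above different-chromosome pairs were chosen after seeing the data. The alternatives tried were other coverage and call minimums, undetermined windows left out, windows called in water controls left out, another linkage measure, and leaving out each experiment or library. Scripts ran in Python 3.11.15 with numpy 2.4.6, scipy 1.17.1 and pandas 2.3.3 and were tested on simulated data.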

Additional observations from a re-analysis of the deposited data

Results flagged for a closer look

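Of 16 group measures examined for a library far from the rest of its group, 3 held one, and chance alone flags about 1 in 20. Replicate 4 of the unstained libraries in the crystal violet experiment had 5.02% of its autosomal calls on chromosome 19, and the next value of its group was 1.55%. Water control replicate 4 of the full collection had 25.4% of chromosome 19 called, and the next water control of that group 0.847%. Replicate 4 of the 3 µl mdc proteinase K libraries had 0.192% of its autosomal calls on chromosome 19, and the next value was 2.32%.

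The water control titled unstained in the SYBR Gold experiment entered no comparison of groups. It had 21.8% of chromosome 19 called, and the highest value among the 9 water controls with few calls was 0.847%.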

How the results depend on the processing

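Over the alternatives tried, 139 values kept their direction and their side of the threshold and 7 did not. The relative coverage of chromosome 19 stayed between 0.888 and 0.984, with adjusted p from 0.485 to 0.909. The share of libraries with none called lost its call among libraries of at least 1% coverage (2.65%, adjusted p = 0.525), with the first 1534 windows of every autosome (15.1%, adjusted p = 0.783) and without the full collection (9.87%, adjusted p = 0.275). Leaving out each experiment gave 9.87% to 17%, and allowing up to 2 called windows gave 26.3%. The run length difference lay between -8.59 and -0.152 kb. The linkage difference at 4000 kb passed 2 SE as the share of libraries with either window that held both (-0.0206 ± 0.00854) and without the eosin test (-0.175 ± 0.0829), and ran from -0.175 to -0.0921 when each experiment was left out. Without single libraries the crystal violet difference ran from 0.602 to 1.82 percentage points, passing only without unstained replicate 4 (adjusted p = 0.0206). With a minimum of 20 calls the difference of protocol_a from protocol_c turned to 0.543 percentage points from -1.07 (adjusted p = 0.923). The causes were not tested. No paired analysis was possible because groups share no replicate numbers in the labels, which give well names, and the numbers printed only name libraries. The paired tests reported compare chromosomes, or windows, within a library. Low coverage limits what single windows show, since a typical window rests on 8 libraries.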
